A study of Mus musculus with 4 samples.

Results

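The genes described are the matrix metalloproteinases (Mmp), the Adam, Adamts and Adamts-like (Adamtsl) families and the tissue inhibitors of metalloproteinases (Timp). They were taken by gene symbol from the probe sets annotated with a single gene, and the probe set with the highest mean level stood for each gene. This gave 83 genes among 19938, made up of 22 Mmps, 34 Adams, 18 Adamts, 5 Adamts-like proteins and 4 Timps, on 108 probe sets. Of the 85 protein-coding genes that RefSeq lists under these names, Adamts2 and Mmp15 were not analysed here.

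Their RNA levels were measured in 4 clonal lines that came by limiting dilution from 1 spontaneous mammary tumor of a female FVB/N Tg (MMTV/neu) mouse. All 4 lines therefore carry the rat ErbB2 (neu) transgene, which the mouse mammary tumor virus promoter drives in mammary cells. The mesenchymal-like lines M1 and M2 came from sorted cells low in neu and CD24 and were kept in MEGM, which is made for mammary epithelium, with pituitary extract, epidermal growth factor, insulin, hydrocortisone and a small amount of serum. The epithelial lines E1 and E2 came from cells high in both markers and were kept in RPMI with more serum, so the type of a line and its medium cannot be told apart. Each line is 1 clone on 1 Affymetrix mouse gene array with no repeat. M1 formed no tumor in the mammary fat pad, and E1, E2 and M2 did.

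Metalloproteinases use a zinc ion to cut proteins outside the cell. Mmps open the collagens, laminins and proteoglycans around a tumor, Adamts proteases trim aggrecan, versican and procollagens, and Adams mostly release receptors and growth factors from the cell surface. Timps bind the active site of these enzymes, each with its own range of targets, and in the breast the balance between enzymes and Timps is known for its part in duct branching and in involution after lactation.

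The values were normalized log2 levels, so a difference of 1 is a 2-fold difference in the listed values. They spanned 2.28 to 14.5, with array medians of 6.75 and 6.85 for M1 and M2, against 6.76 and 6.75 for E1 and E2, and a median over the 4 arrays of 6.78. The level at which a probe set reads background is not known, so a fold is a ratio of listed values. Probe sets of different genes differ in brightness, and levels were compared between lines and not between genes. The types fitted their names in part. Of 10 epithelial markers, 5 (50%, beside 2.02% of all probe sets) fell in M1 and M2 (Cdh1, Epcam, Cldn3, Cldn7 and Esrp1). The keratins Krt8 and Krt18 were high in the 4 lines. Of 15 mesenchymal markers, 6 (40%, beside 1.72% of all probe sets) rose in M1 and M2, among them Zeb1, Twist1 and Cdh2. Vim and Fn1 were high in the 4 lines and did not pass the test. Vim was at 13.72 and 13.82 in M1 and M2, against 12.79 and 13.10 in E1 and E2 (adjusted p = 0.0896, limma). The fibroblast collagen genes Col1a1 and Col1a2 did not pass the test. None of 8 leukocyte, 5 endothelial, 3 adipocyte and 6 myoepithelial markers passed it, beside 3.73% of all probe sets. Unadjusted p-values under 0.05 were found for 1, 1, 0 and 0 of them, beside 18% of all probe sets. The summed log2 level of the 8 leukocyte markers was 54.5 in M1 and 52.6 in M2, against 49.4 in E1 and 48.4 in E2. Its defining member Ptprc was at 5.88 and 5.54 in M1 and M2, against 5.51 and 5.59 in E1 and E2. The markers behind the higher sum were Lyz2, at 8.91 and 6.57 in M1 and M2 against 5.08 and 5.65 in E1 and E2, Cd68, at 10.59 and 11.60 against 10.66 and 8.77, and Ly6g, at 5.99 and 5.47 against 4.94 and 4.64. Fewer cells expressing a gene and less RNA per cell cannot be told apart in bulk RNA.

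The first comparison set both mesenchymal-like lines against both epithelial lines. With limma, 8 of the 83 genes (9.64%) passed an adjusted p of 0.05, beside 3.73% of all 23410 probe sets tested and 3.84% of the 19938 genes at 1 probe set each. Timp1, Mmp19, Adamtsl5 and Adamtsl4 rose in M1 and M2, 4 of 83 beside 1.72% of all probe sets. Adamts3, Mmp16, Adamts4 and Adamts5 fell, 4 of 83 beside 2.02%. An unadjusted p under 0.05 was found for 23 of the 83 genes (27.7%), beside 18% of all probe sets. The median difference over the 83 genes was 0.01 on the log2 scale and that over all probe sets was 0.00, so the middle of the families lay at that of all probe sets.

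Both M lines lay above both E lines in 22 genes (26.5%, beside 24.2% of all probe sets) and below them in 20 (24.1%, beside 23.8%). The families differed in how these fell out, as counts without a test. Of 22 Mmps, both M lines lay above both E lines in 9 and below in 5. These were 7 and 5 after quantile normalization and after median centring. Of 18 Adamts, the M lines lay above in 2 and below in 9 (2 and 10 after each of these rescalings). The Adams were even at 6 and 6 of 34 (6 and 9 after quantile normalization, 6 and 10 after median centring). Of the 5 Adamts-like genes, 3 lay above and 0 below (2 and 0 after quantile normalization). In 42 of the 83 genes (50.6%) the 4 lines lay less than 0.5 apart on the log2 scale, beside 60.2% of all probe sets. In 15 (18.1%) they were at least 2 apart, beside 7.06%. With 2 lines against 2, an exact permutation test cannot go below p = 0.333, so only the test across all probe sets was used, and its p-values cover the spread from clone to clone of 1 tumor. Without E1 or without E2, 0 of the 83 genes were called, although 16 and 18 had an unadjusted p under 0.05. Leaving out M1 or M2 instead gave 15 and 16 called genes, beside 7.52% and 8.03% of all probe sets, so that calls over all probe sets also became more frequent than with the 4 lines.

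**Figure D1:**
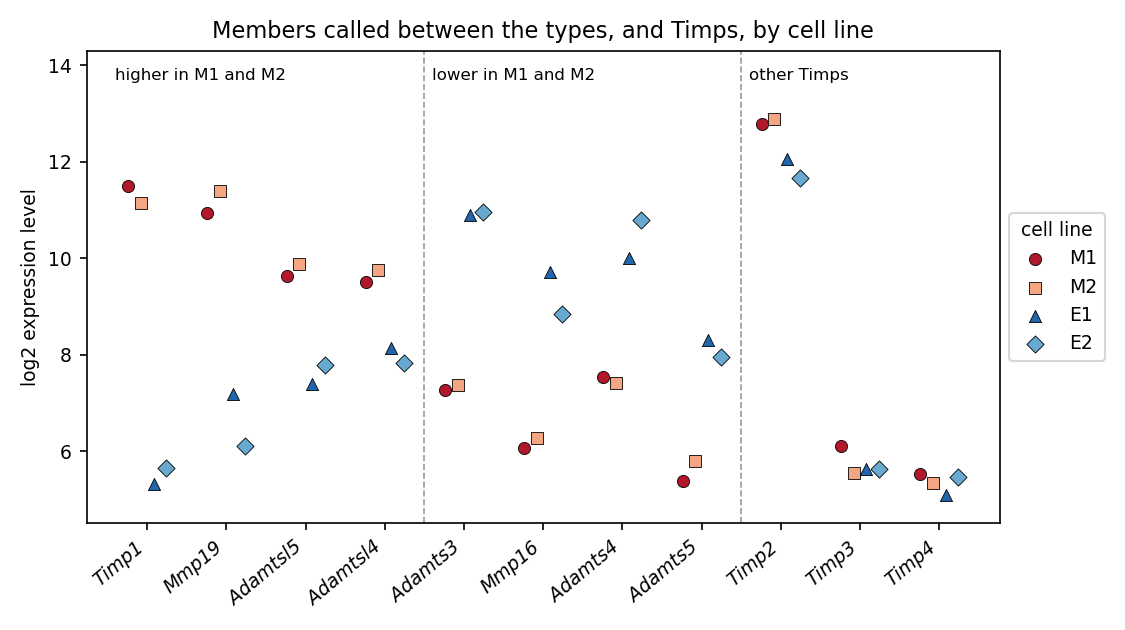
Log2 levels of the 8 genes called between the types and of the other Timps, with a point for each of the lines M1, M2, E1 and E2. The points of M1 and M2 lie together and apart from those of E1 and E2 in each of the 8 genes, with the widest gap in Timp1 (11.49 and 11.14 against 5.31 and 5.64).

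Of the Timps, Timp1 rose in the mesenchymal-like lines. Timp1, a secreted inhibitor of most soluble Mmps, was at 11.49 in M1 and 11.14 in M2, against 5.31 in E1 and 5.64 in E2. Both M lines were well above the median of the arrays and both E lines below it. The difference was 5.84 ± 0.20 (SE, 95% interval 5.29 to 6.39), a 57.4-fold ratio, with an adjusted p of 0.00284 by limma. With values below the array median raised to it, the difference was 4.54 (adjusted p = 0.00416, limma). Timp2, which also helps Mmp14 to activate pro-Mmp2, was at 12.78 in M1 and 12.88 in M2, against 12.05 in E1 and 11.66 in E2. It was high in the 4 lines, both M lines lay above both E lines, and the difference of 0.97 ± 0.18 did not pass the test (adjusted p = 0.0859, limma).

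The other two Timps were at low levels throughout. Timp3, which stays bound to the matrix and inhibits Adam17 and several Adamts proteases, was at 6.10 in M1 and 5.54 in M2, against 5.64 in E1 and 5.63 in E2. M1 was the highest line, and M2 lay below both E lines. Timp4 was at 5.52 in M1 and 5.35 in M2, against 5.08 in E1 and 5.46 in E2, and the types overlapped. Their differences of 0.18 ± 0.22 and 0.16 ± 0.18 had adjusted p-values of 0.781 and 0.757 by limma.

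Among the Mmps, 1 rose and 1 fell (9.09% called, beside 3.73% of all probe sets). Mmp19, an Mmp that cuts basement membrane proteins, was at 10.93 in M1 and 11.39 in M2, against 7.18 in E1 and 6.10 in E2. The M lines were far above the E lines, which themselves lay more than 1 apart. The difference was 4.52 ± 0.43 (SE, 95% interval 3.32 to 5.72), a 22.9-fold ratio, with an adjusted p of 0.0224 by limma. Mmp16, a membrane-type Mmp (MT3-MMP) that can activate pro-Mmp2, was at 6.06 in M1 and 6.28 in M2, against 9.71 in E1 and 8.84 in E2. Both M lines were below the array median and both E lines above it. The difference was -3.11 ± 0.33, an 8.64-fold lower value in M1 and M2, with an adjusted p of 0.0296 by limma. With values below the array median raised to it, the difference was -2.50 and the adjusted p lay just above 0.05 by limma.

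The other membrane-type Mmps did not pass the test. Mmp14 (MT1-MMP), the main activator of pro-Mmp2 and a collagenase at the cell surface, was at 7.84 in M1 and 9.36 in M2, against 6.77 in E1 and 6.98 in E2. The M lines lay above the E lines and apart from each other, and the difference of 1.73 ± 0.55 had an adjusted p of 0.234 by limma. Mmp24 (MT5-MMP) was at 7.15 in M1 and 7.40 in M2, against 6.41 in E1 and 6.61 in E2, with a difference of 0.76 ± 0.15 and an adjusted p of 0.106 by limma. The glycosylphosphatidylinositol-anchored Mmp17 and Mmp25 lay within 0.094 and 0.092 over the 4 lines.

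None of the 4 collagenases, 2 gelatinases and 4 stromelysins and matrilysin passed the test. An unadjusted p under 0.05 was found for 1, 1 and 2 of them (25%, 50% and 50%, beside 18% of all probe sets). Mmp3 (stromelysin-1), which cuts many matrix proteins and activates other pro-Mmps, was at 8.44 in M1 and 10.84 in M2, against 5.05 in E1 and 5.32 in E2. Both M lines were far above the E lines and M2 was 5.25-fold above M1. The difference of 4.46 ± 0.86 (SE, 95% interval 2.06 to 6.86) was nearly as large as that of Mmp19, but its adjusted p was 0.0987 by limma, and with values raised to the array median the difference was 2.86. Mmp11 (stromelysin-3), a protease first known from the stroma of breast cancers, was at 10.04 in M1 and 8.59 in M2, against 7.26 in E1 and 7.01 in E2. Here M1 was the higher of the M lines, and the difference of 2.18 ± 0.53 had an adjusted p of 0.150 by limma.

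The gelatinases Mmp2 and Mmp9, which cut denatured and basement membrane collagen, differed little. Mmp2 was at 7.59 in M1 and 7.31 in M2, against 7.95 in E1 and 8.23 in E2, with a difference of -0.64 ± 0.17 (adjusted p = 0.177, limma), and both M lines lay below both E lines. Mmp9 was at 6.80 in M1 and 6.32 in M2, against 6.05 in E1 and 6.58 in E2, and the types overlapped. The collagenase Mmp13 was at 6.69 in M1 and 6.51 in M2, against 5.80 in E1 and 6.09 in E2, a difference of 0.65 ± 0.16 (adjusted p = 0.149, limma). The epithelial matrilysin Mmp7 was below the median of the arrays in the 4 lines, at 5.92 in M1 and 5.55 in M2, against 5.64 in E1 and 5.59 in E2.

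Of 18 Adamts proteases, 3 fell in the mesenchymal-like lines and 0 rose (16.7% called, beside 3.73% of all probe sets). Adamts3 belongs to the procollagen propeptidases, and Adamts4 and Adamts5 share the proteoglycan-cleaving role. Adamts3, which removes the amino propeptide of procollagens, was at 7.26 in M1 and 7.37 in M2, against 10.89 in E1 and 10.96 in E2. Lines of a type were almost equal and the types did not overlap. The difference was -3.61 ± 0.11 (SE, 95% interval -3.92 to -3.30), a 12.2-fold lower value in M1 and M2, with an adjusted p of 0.00284 by limma. The array held 16 probe sets for Adamts3, and in the same fit the 16 were called lower in M1 and M2, with differences of -5.86 to -2.92 and a median of -3.79. Adamts14, the other procollagen propeptidase analysed, overlapped between the types, at 6.80 in M1 and 8.98 in M2, against 8.03 in E1 and 8.50 in E2.

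Among the 7 proteoglycan-cleaving Adamts, 2 fell (28.6% called, beside 3.73% of all probe sets), Adamts4 and Adamts5, the aggrecanases. Adamts4 was at 7.53 in M1 and 7.42 in M2, against 10.01 in E1 and 10.79 in E2, a difference of -2.93 ± 0.30 (adjusted p = 0.0260, limma). Adamts5 was at 5.37 in M1 and 5.80 in M2, against 8.31 in E1 and 7.95 in E2, a difference of -2.54 ± 0.22 (adjusted p = 0.0185, limma). The values in M1 and M2 were 7.61-fold and 5.82-fold lower. Adamts5 was below the array median in M1 and M2, and with values raised to that median its difference was -1.35 (adjusted p = 0.0430, limma). Adamts15, a versicanase, lay the same way round at 6.01 in M1 and 5.96 in M2, against 7.04 in E1 and 7.79 in E2, and its difference of -1.43 ± 0.29 did not pass the test (adjusted p = 0.106, limma). Adamts1, Adamts8 and Adamts9 overlapped between the types, and Adamts20 lay within 0.08 over the lines.

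Of the 9 other Adamts, 0 passed the test and 3 had an unadjusted p under 0.05 (33.3%, beside 18% of all probe sets). Adamts6, which acts on the fibrillin matrix, was at 7.35 in M1 and 8.23 in M2, against 5.38 in E1 and 5.47 in E2. The M lines lay above the E lines, and the difference of 2.36 ± 0.33 had an adjusted p of 0.0533 by limma, just above 0.05, and with values raised to the array median the difference was 1.01. Adamts12, which cuts cartilage oligomeric matrix protein, was at 7.43 in M1 and 7.90 in M2, against 9.27 in E1 and 8.97 in E2, with a difference of -1.46 ± 0.22 and an adjusted p of 0.0637 by limma. Adamts17 was at 8.91 in M1 and 9.08 in M2, against 9.83 in E1 and 9.39 in E2. Both M lines lay below both E lines in its 5 probe sets, with differences of -2.51 to -0.31 and 0 of 5 called.

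The Adamts-like proteins resemble Adamts proteases but lack the catalytic domain and sit in the microfibrils of the matrix. Of 5 measured, 2 rose and 0 fell (40% called, beside 3.73% of all probe sets). Adamtsl5, which binds fibrillins, was at 9.62 in M1 and 9.89 in M2, against 7.38 in E1 and 7.78 in E2, a difference of 2.17 ± 0.20 (adjusted p = 0.0209, limma). Adamtsl4, which takes part in fibrillin microfibril assembly, was at 9.51 in M1 and 9.76 in M2, against 8.13 in E1 and 7.83 in E2, a difference of 1.66 ± 0.17 (adjusted p = 0.0277, limma). In both genes the M lines were close to each other and above the E lines, by 4.51-fold and 3.15-fold. Adamtsl1 and Adamtsl2 lay within 0.15 and 0.33 over the lines, and Adamtsl3 was near 5.64 in M1, E1 and E2 and higher in M2 alone.

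**Figure D2:**
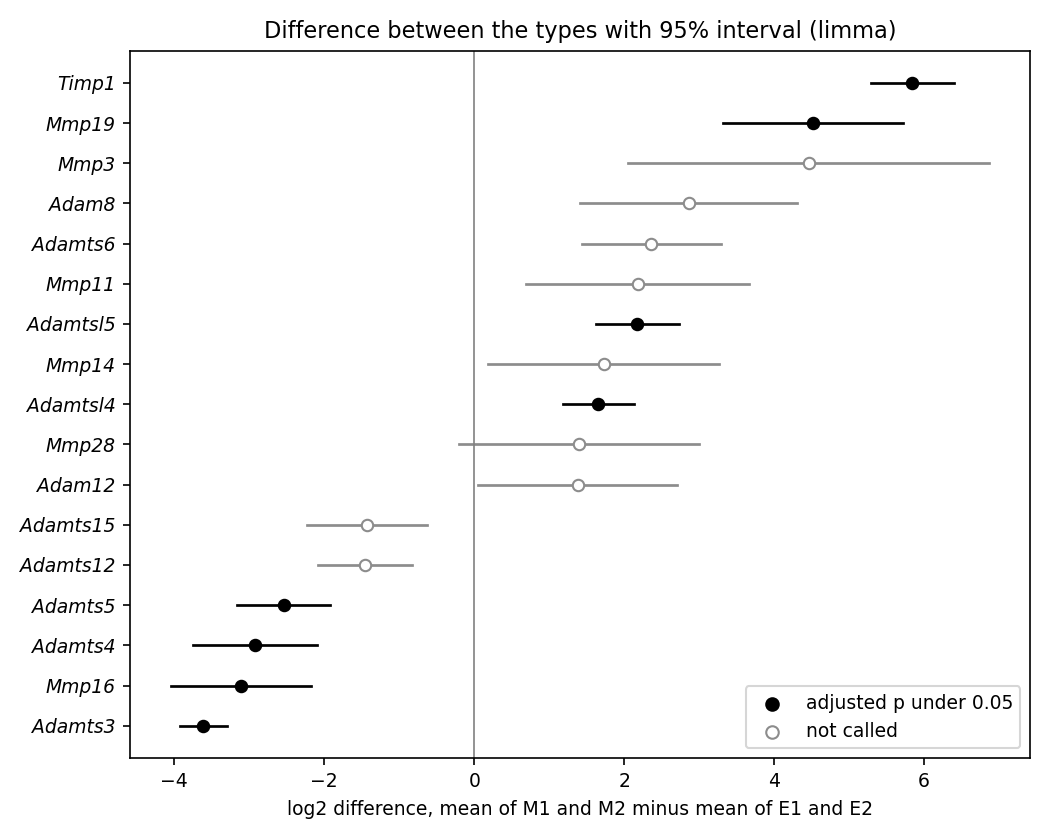
Difference in log2 level, mean of M1 and M2 minus mean of E1 and E2, for the genes at least 1 apart between the types, in order of the difference. Bars are limma 95% intervals of each gene, not adjusted for the number of genes, and filled points were called. Timp1 (5.84), Mmp19 (4.52), Adamtsl5 (2.17) and Adamtsl4 (1.66) are the genes called higher, and Adamts3 (-3.61), Mmp16 (-3.11), Adamts4 (-2.93) and Adamts5 (-2.54) those called lower.

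None of the 34 Adams passed the test. An unadjusted p under 0.05 was found for 4 (11.8%, beside 18% of all probe sets), the 4 being among the 9 sheddase Adams. Adam8, a sheddase best known from leukocytes, was at 9.31 in M1 and 10.74 in M2, against 7.14 in E1 and 7.19 in E2. The M lines lay above the E lines with M2 the higher, and the difference of 2.86 ± 0.52 had an adjusted p of 0.0870 by limma. The leukocyte marker list was also higher in M1 and M2 in its summed level, with differences of 2.38 in Lyz2, 1.38 in Cd68, 0.94 in Ly6g and 0.16 in Ptprc. Cd68 overlapped between the types. Within the M lines the sum was higher in M1 (54.5) than in M2 (52.6), as were Lyz2 and Ly6g, while Adam8 and Cd68 were higher in M2. The part of leukocyte genes in the Adam8 values was not tested. Adam15, which carries an integrin-binding site, was at 11.79 in M1 and 11.61 in M2, against 10.66 in E1 and 10.91 in E2, a difference of 0.91 ± 0.15 (adjusted p = 0.0727, limma).

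The broadly acting sheddases were high in the 4 lines. Adam10, which cuts Notch receptors and E-cadherin, was at 11.47 in M1 and 11.23 in M2, against 11.72 in E1 and 11.77 in E2, a difference of -0.40 ± 0.13 (adjusted p = 0.248, limma). Adam17, which releases tumor necrosis factor and ligands of the epidermal growth factor receptor, was at 10.19 in M1 and 10.98 in M2, against 11.45 in E1 and 10.98 in E2. M1 was the lowest line and M2 equalled E2. Adam9 was at 12.44 in M1 and 12.41 in M2, against 12.80 in E1 and 12.26 in E2, and the types overlapped. The 22 Adams of testis and sperm, many of which act in fertilization, lay below the median of the arrays in each of the 4 lines, between 3.39 and 5.69. Adam1b, part of the sperm protein fertilin in the mouse, was at 5.51 in M1 and 5.603 in M2, against 5.52 in E1 and 5.69 in E2. In 21 of these 22 the lines were within less than 0.5, and their differences between the types ran from -0.23 to 0.33. Of the 3 brain Adams without a catalytic site, Adam11 was at 7.36 in M1 and 7.64 in M2, against 7.11 in E1 and 7.13 in E2, and Adam23 lay within 0.17 over the lines.

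**Figure D3:**
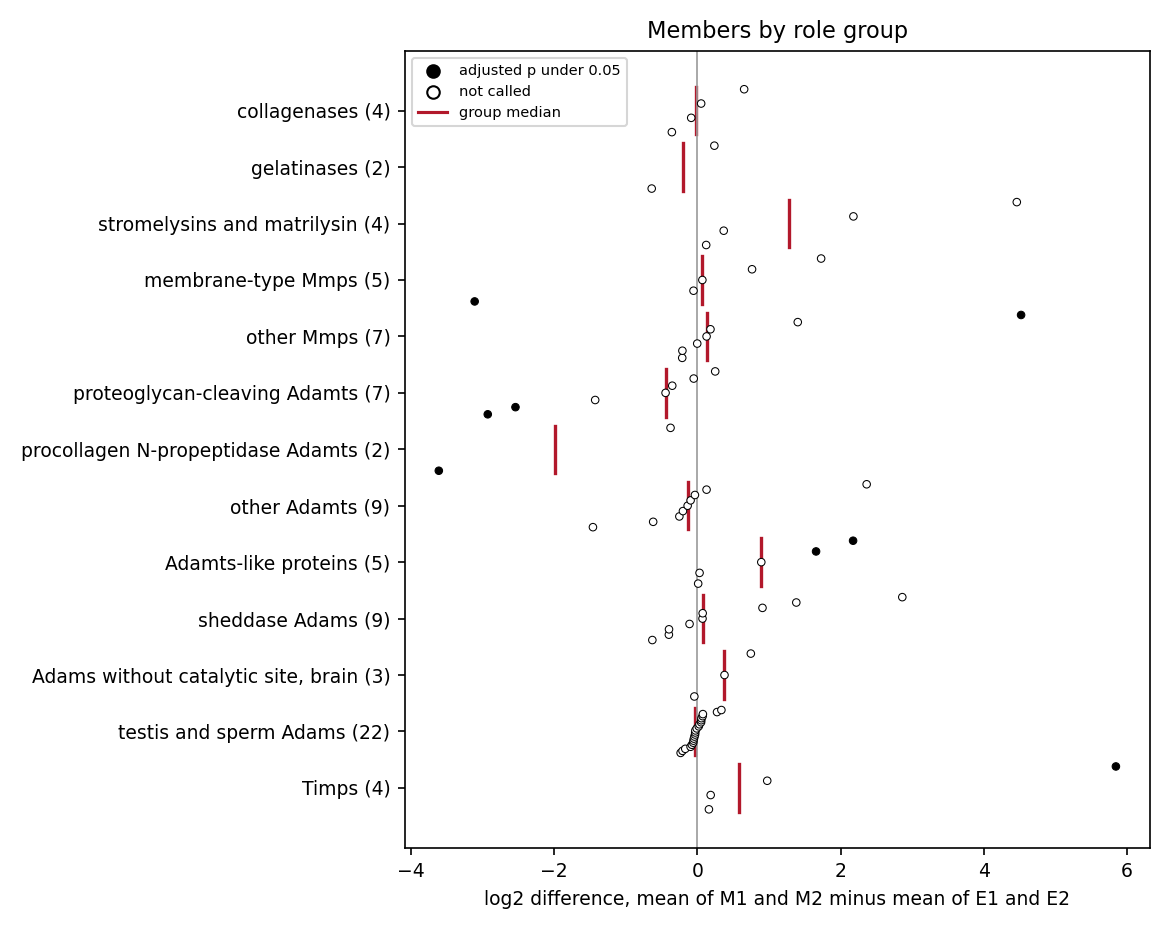
Log2 difference between the types (mean of M1 and M2 minus mean of E1 and E2), with a point for each gene, by role, filled where called, and a red line at the median of each group (points are spaced vertically by rank). The testis and sperm Adams lie between -0.23 and 0.33, while the stromelysins reach 4.46 with Mmp3 and the proteoglycan-cleaving Adamts reach -2.93 with Adamts4.

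The next comparison set M1, the line without tumor, against the 3 that formed tumor, E1, E2 and M2. With limma, 0 of the 83 genes passed an adjusted p of 0.05, beside 0.094% of all probe sets. An unadjusted p under 0.05 was found for 10 (12.0%), beside 7.01% of all probe sets. Of these 10, Mmp11, Mmp28, Adam12 and Timp3 were higher in M1, and Mmp1a, Adamts14, Adamts8, Adamts16, Adam17 and Adam33 were lower. With 1 line against 3 an exact permutation test cannot go below p = 0.25, and the single M1 array was assumed to vary like the other lines. Without M2, which sets M1 against the epithelial lines alone, 16 of the 83 genes and 1879 of the 23410 probe sets were called. Timp1, Mmp19, Adamts3 and Mmp16, for which M2 lay with M1, differed from the mean of the other lines by 4.13, 2.70, -2.48 and -2.22, with adjusted p-values of 0.885, 0.892, 0.888 and 0.886 by limma.

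Mmp28 (epilysin), an Mmp of epithelia, was at 9.91 in M1, against 8.33 in M2, 7.75 in E1 and 7.69 in E2, with M1 1.99 above the mean of the other lines (adjusted p = 0.402, limma). Mmp11 was 2.42 above that mean in M1 (adjusted p = 0.674, limma). Adam12, which releases epidermal growth factor receptor ligands and is known from muscle and placenta, was at 8.31 in M1, against 7.00 in M2, 6.27 in E1 and 6.27 in E2. In these 3 genes M1 was the highest line, M2 lay between it and the E lines, and Adam12 stood 1.79 above the mean of the others (adjusted p = 0.512, limma). Adamts8, known as an inhibitor of vessel growth, was at 6.74 in M1, against 7.94 in M2, 7.70 in E1 and 7.86 in E2. The 3 tumor-forming lines were close together, M1 lay 1.10 below their mean on the log2 scale, and the adjusted p of the difference was 0.340 by limma.

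M1 and M2 were also set against each other, 1 array against 1, with no test. A level at least 2-fold higher in M1 was found in 3 genes (3.61%, beside 3.22% of all probe sets), Mmp28, Mmp11 and Adam12, by 1.58, 1.45 and 1.31 on the log2 scale. A level at least 2-fold lower in M1 was found in 11 genes (13.3%, beside 2.64% of all probe sets). The direction was therefore uneven in these families, with 11 of the 14 genes lower in M1. Mmp3 was 5.25-fold higher in M2 than in M1, Adamts14 4.53-fold, Adamtsl3 3.41-fold and Mmp1a 3.25-fold. Mmp14, Adam22, Adam8, Adamts9, Adamts8, Adamts1 and Mmp10 made up the rest, between 2.02-fold and 2.86-fold. Adam22 was below the median over the arrays (6.78) in M1 and M2, and Adamtsl3, Mmp1a, Mmp10 and Adamts8 were below it in M1. The folds of these genes, and the uneven count, thus rest in part on dim values.

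The 14 genes did not share 1 pattern against the epithelial lines. In 9 of them M2 lay nearer to the mean of E1 and E2 than to M1, and in 5 nearer to M1. Among the 5, M1 almost equalled that mean in Adam22 and Adamtsl3, so for these the split says little. Adamts14 was at 6.80 in M1, against 8.98 in M2, 8.03 in E1 and 8.50 in E2, with M1 below the rest. The interstitial collagenase Mmp1a was at 5.74 in M1, against 7.44 in M2, 6.80 in E1 and 7.10 in E2, again with M1 alone below. Adamtsl3 was at 5.65 in M1, against 7.42 in M2, 5.64 in E1 and 5.64 in E2. Adam22, a neural Adam with no catalytic site, was at 4.91 in M1, against 6.40 in M2, 4.93 in E1 and 4.90 in E2. In both of these M2 stood alone above 3 almost equal lines. None of the 14 was among the 8 genes called between the types, a test in which the spread between M1 and M2 counts as error.

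**Figure D4:**
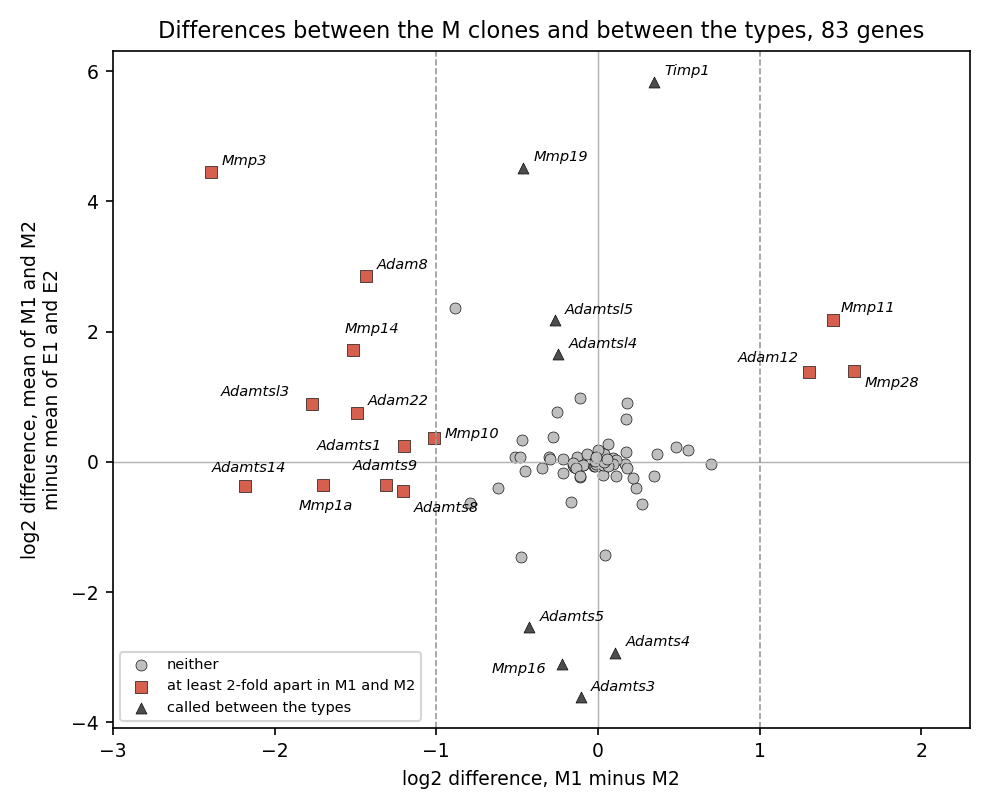
Difference between M1 and M2 (log2, horizontal axis) against the difference between the types (log2, mean of M1 and M2 minus mean of E1 and E2, vertical axis) for the 83 genes, with dashed lines at a 2-fold difference. The 11 genes left of the dashed line at -1, such as Mmp3 and Adamts14, were lower in M1, the 3 to the right were higher, and the 8 genes called between the types lie between the lines.

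E2 and E1 differed by at least 2-fold in 2 of the 83 genes, beside 2.24% of all probe sets. Adamts1, a protease of versican and aggrecan known for its part in ovulation, was 3.27-fold higher in E2 than in E1, at 8.95 in E2 against 7.24 in E1. M2 and M1 stood in the same relation, at 8.94 in M2 and 7.74 in M1, so that M2 and E2 were nearly equal. Mmp19 was lower in E2 than in E1, at 6.10 in E2 against 7.18 in E1, so that E1 was 2.12-fold higher. Adamts9, which cuts versican, was likewise higher in M2 than in M1 and in E2 than in E1, at 8.98 in M2 and 7.67 in M1, against 9.10 in E2 and 8.25 in E1.

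Of the Mmp genes, 10 lie in an unbroken row on chromosome 9, in the order Mmp13, Mmp12, Mmp1b, Mmp3, Mmp1a, Mmp10, Mmp8, Mmp27, Mmp20 and Mmp7. The levels of Mmp3, Mmp1a and Mmp10 differed in their pattern across the lines. The rest, Mmp13, Mmp12, Mmp1b, Mmp8, Mmp27, Mmp20 and Mmp7, lay below the median over the arrays (6.78) in each line. Whether these dim genes run with the others cannot be told from such values. Mmp3 was the one with a wide difference between the types (4.46), and the other 9 ranged from -0.36 in Mmp1a to 0.65 in Mmp13. Mmp1a and Mmp10 (stromelysin-2), which flank each other, were both higher in M2 than in M1, as was Mmp3. Mmp10 was at 6.28 in M1 and 7.29 in M2, against 6.38 in E1 and 6.45 in E2. The neutrophil collagenase Mmp8, the macrophage elastase Mmp12 and the tooth enamel protease Mmp20 lay within 0.17, 0.28 and 0.30 over the lines.

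**Figure D5:**
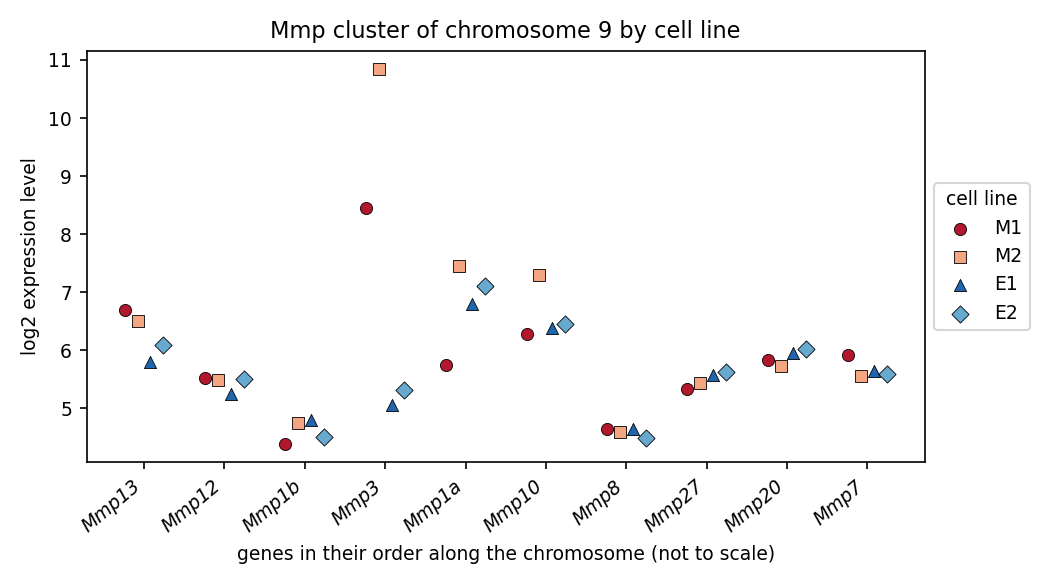
Log2 levels of the 10 chromosome 9 Mmp genes in M1, M2, E1 and E2, in their order along the chromosome. Mmp3 stands apart, at 8.44 and 10.84 in M1 and M2 against 5.05 and 5.32 in E1 and E2. Its neighbour Mmp1a does not share its pattern, and its neighbour Mmp1b lies below the median over the arrays (6.78) in each line.

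Promoters of this row are known for the element bound by AP-1, the Fos and Jun dimer, close to the start. In the RefSeq promoter windows (GRCm38.p6), 52 of the 83 genes were matched, and the 250 bases before the start were searched on both strands for TGAGTCA, whose other strand reads TGACTCA. The letters were found in 9 of the 52 genes, against 5.16% of all 27025 genes and 4.46% of all 32851 windows. They were Adam19, Adam29 and 7 of the 10 genes in the row. The last 100 bases before the start of these 7 are printed 5′ to 3′ on the strand of the gene. The AP-1 letters are in capitals.

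Mmp13 (chr9:7272414-7272513, plus strand): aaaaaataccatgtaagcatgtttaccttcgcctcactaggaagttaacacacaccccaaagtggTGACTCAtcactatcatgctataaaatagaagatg
Mmp12 (chr9:7347274-7347373, plus strand): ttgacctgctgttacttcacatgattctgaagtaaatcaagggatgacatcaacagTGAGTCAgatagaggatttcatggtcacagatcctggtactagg
Mmp1b (chr9:7388027-7388126, minus strand): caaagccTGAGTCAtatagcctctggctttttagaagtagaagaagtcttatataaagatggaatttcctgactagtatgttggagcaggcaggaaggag
Mmp3 (chr9:7445722-7445821, plus strand): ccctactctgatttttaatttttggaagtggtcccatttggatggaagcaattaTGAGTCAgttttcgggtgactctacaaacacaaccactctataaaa
Mmp1a (chr9:7464041-7464140, plus strand): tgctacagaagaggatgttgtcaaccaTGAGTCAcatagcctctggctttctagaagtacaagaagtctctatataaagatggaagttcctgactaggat
Mmp10 (chr9:7502242-7502341, plus strand): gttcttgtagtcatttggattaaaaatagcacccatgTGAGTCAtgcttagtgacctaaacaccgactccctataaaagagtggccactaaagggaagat
Mmp7 (chr9:7691990-7692089, plus strand): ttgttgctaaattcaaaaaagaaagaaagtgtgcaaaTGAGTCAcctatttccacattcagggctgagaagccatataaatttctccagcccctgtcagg

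Counted back from the start, with the base before it as position -1, the letters begin at -46 in Mmp3, -44 in Mmp12, -63 in Mmp7 and Mmp10, -73 in Mmp1a and -93 in Mmp1b. In Mmp13 they begin at -35 and read TGACTCA on the strand of the gene. Of the 7 genes, Mmp3 was the one with a difference of at least 2 between the types, and Mmp7, Mmp12 and Mmp1b lay within 0.37, 0.28 and 0.41 over the 4 lines. The genes with these letters thus included Mmp3 and genes with little difference in the listed values. Mmp7, Mmp12 and Mmp1b were below the median over the arrays (6.78) in each line, so a difference in them could go unseen. Mmp7 and Mmp12 also have another RefSeq window, without these letters. A match of letters is a description and no measure of binding.

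The genes around the proteases were followed as 4 lists. Of 13 measured genes for factors that act at Mmp promoters, 0 passed the test. An unadjusted p under 0.05 was found for 3 of them (23.1%, beside 18% of all probe sets). The 3 were Ets1 and Etv5, lower in M1 and M2 with differences of -0.67 and -0.78, and Fosl1, which was higher. Both M lines lay below both E lines in 5 of the 13 (38.5%, beside 23.8% of all probe sets) and above in 2 (15.4%, beside 24.2%). Fosl1, a Fos-family subunit of AP-1, was at 10.08 in M1 and 12.71 in M2, against 7.43 in E1 and 7.96 in E2. The order of the M lines was that of Mmp3, and the difference of 3.70 had an adjusted p of 0.164 by limma. The part of AP-1 in the levels of the Mmps was not tested.

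Of 16 measured genes for activation, display and uptake of Mmps, 1 rose and 2 fell (18.75% called, beside 3.73% of all probe sets). Lrp1, the endocytic receptor that clears many proteases and Timp complexes, was at 10.98 in M1 and 12.18 in M2, against 7.39 in E1 and 7.35 in E2, a difference of 4.21 (adjusted p = 0.0279, limma). Pcsk6, a furin-like convertase that can activate proproteins, was at 6.56 in M1 and 6.88 in M2, against 11.83 in E1 and 11.53 in E2, a difference of -4.96 (adjusted p = 0.00313, limma). Itgb3, the integrin subunit that can hold Mmp2 at the cell surface, was at 6.33 in M1 and 6.29 in M2, against 10.82 in E1 and 10.92 in E2, a difference of -4.56 (adjusted p = 0.00252, limma). The plasminogen activators Plau and Plat and the caveolar protein Cav1 had differences of 2.53, 2.20 and 2.49 that did not pass the test. Cav1 was at 12.40 in M1 and 11.95 in M2, against 11.16 in E1 and 8.22 in E2, so E1 lay nearer to the M lines than to E2. Plau was higher in M2 (9.13 in M2 and 7.33 in M1, against 5.71 and 5.68 in E1 and E2), and Plat was higher in M1 (9.01 in M1 and 7.89 in M2, against 6.32 and 6.19 in E1 and E2).

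Of 19 measured genes for other matrix proteases and related matrix proteins, 3 rose and 1 fell (21.1% called, beside 3.73% of all probe sets). Of these called genes, only Htra1 codes for a protease, so the share is not one of proteases alone. Pcolce, an enhancer of the procollagen carboxy-propeptidase, was at 11.64 in M1 and 12.59 in M2, against 6.64 in E1 and 7.10 in E2, a difference of 5.25 (adjusted p = 0.0131, limma). Its relative Pcolce2 was at 9.59 in M1 and 10.58 in M2, against 5.32 in E1 and 5.52 in E2, a difference of 4.67 (adjusted p = 0.0156, limma). Both enhancers of carboxy-propeptide removal were thus higher in the lines in which the amino-propeptidase Adamts3 was lower. Bmp1, a carboxy-propeptidase in this list, did not share the direction of its enhancers. It was at 11.10 in M1 and 11.74 in M2, against 12.43 in E1 and 12.30 in E2. Its difference of -0.95 did not pass the test (adjusted p = 0.173, limma). Htra1, a secreted serine protease, was at 10.39 in M1 and 12.41 in M2, against 5.98 in E1 and 5.67 in E2, a difference of 5.58 (adjusted p = 0.0468, limma). Papln, a matrix protein related to the Adamts proteases, was at 9.09 in M1 and 9.14 in M2, against 12.49 in E1 and 12.51 in E2, a difference of -3.38 (adjusted p = 0.00284, limma).

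Of 10 genes for the maturation of Adam10 and Adam17, 0 passed the test. An unadjusted p under 0.05 was found for 4 of them (40%, beside 18% of all probe sets). Tspan14, Frmd8 and Tspan33 were lower in M1 and M2, with differences of -0.83, -0.68 and -0.65, and Tspan5 was higher. Tspan5, a tetraspanin that guides Adam10 to the cell surface, was at 10.85 in M1 and 11.24 in M2, against 8.59 in E1 and 6.52 in E2. The M lines lay above the E lines, which were themselves well apart, and the difference of 3.49 had an adjusted p of 0.121 by limma.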

How the data were processed

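RNA of 4 clonal lines was measured on Affymetrix MoGene 1.0 ST arrays, 1 per line. The authors deposited normalized log2 levels of 35556 probe sets. The labels name Partek, and the normalization method is not given in the sources used here. The study's methods name a column kit and the labels name Trizol for the RNA.

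Of the probe sets, 21789 have 1 gene symbol in the platform annotation, 1621 have several and 12146 have none. The 83 members keep their symbol in RefSeq through the gene identifier. A member with several probe sets was represented by the one with the highest mean.

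Differences between groups were tested by limma 3.58.1 under R 4.3.3 (lmFit and eBayes, 2 residual degrees of freedom), with p-values adjusted by the method of Benjamini and Hochberg over the 23410 probe sets with a symbol and a threshold of 0.05. In single arrays a 2-fold difference was counted, without a test. The fit was tested on simulated data. Alternatives were other scalings, a filter and a floor on dim probe sets, the mean of the probe sets of a gene, a mean-variance trend, a block, a 4-fold difference and leaving out each line.

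The members, role groups and pathway and marker lists were chosen with earlier results of these data known. Given in full were members called by limma, those at least 2 apart on the log2 scale between the types, between M1 and M2 or for M1 against the other lines, those at least 1 apart between E2 and E1, the Timps and the member of each role group with the highest mean level. Of the lists, genes called or at least 2 apart were named, and markers were named to describe the lines. Bmp1 was also named, as were genes with an unadjusted p under 0.05 in the lists of promoter factors and of Adam10 and Adam17 maturation.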

Additional observations from a re-analysis of the deposited data

How the results depend on the processing

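Of the 83 genes, 8 were called between the types, and 7 to 10 were called after quantile normalization, median centring, the filter on dim probe sets (32 genes left), a floor at the median, the mean of the probe sets of a gene or a mean-variance trend. Adamts6 was called under quantile normalization, centring and the trend, Adamts12 under the first 2, and Mmp16 was lost with the floor (adjusted p just above 0.05, limma). Leaving out each line gave 0 to 16 called genes, with 0 without E1 or without E2, and the cause was not tested. For M1 against the other lines the count was 0 in the settings that kept the 4 lines, and leaving out E1, E2 or M2 gave 0 to 16. The clone numbers are shared by the types, but deviations of lines with the same number had a correlation of -0.04, so the numbers do not pair the lines. With the clone number as a replicate block, 3 genes (Timp1, Adamts3 and Adamtsl5) and 319 probe sets were called between the types, against 8 and 874 without it. Both M lines lay above both E lines in 14 genes and below in 10 of the 32 left by the filter, and below in 11 with the floor. At 4-fold, 2 genes differed between M1 and M2 (Mmp3 and Adamts14) and 0 between E2 and E1. At 2-fold, 1 gene differed between E2 and E1 with the floor, against 2 without it. Both M lines lay above both E lines in 19 genes and below in 24 after quantile normalization, and in 20 and 25 after centring, against 22 and 20 as deposited, so which of these counts is the larger depends on the scaling. None of the genes recomputed in each setting changed the sign of its difference. With the floor, the log2 difference between the types was 4.54 in Timp1, -2.50 in Mmp16, -1.35 in Adamts5, 2.86 in Mmp3 and 1.01 in Adamts6, as values below the median are raised to it. The number of arrays and an unknown background level limit what low genes can show.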

Other observations

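Adamts9 had 6 probe sets, and its types overlapped in each of them. M2 was higher than M1 and E2 higher than E1 in each of the 6, as in the single probe set of Adamts1. In the probe set with the widest gap between the M lines, Adamts9 was at 5.50 in M1 and 7.83 in M2, against 6.35 in E1 and 7.59 in E2. This order was noticed in the values and was given no test.

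Members of the families that sit next to each other in the genome did not always move together. Adamts5 fell in M1 and M2, and its neighbour Adamts1 on chromosome 16 overlapped between the types. Adamts15 and Adamts8, neighbours on chromosome 9, had differences between the types of -1.43 and -0.44, and neither passed the test (adjusted p = 0.106 and 0.724, limma).

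A pair of probe sets that name a family member together with other genes was kept out of the members. The one for Adam34 and its relatives was at 4.004 in M1 and 4.038 in M2, against 4.213 in E1 and 4.204 in E2. The one that names Adam4 was at 4.73 in M1 and 5.13 in M2, against 4.86 in E1 and 4.62 in E2, so both were dim in the 4 lines.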
